A study of Sus scrofa with 2 samples.

Results

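The MYC and MAX network is a family of transcription factors that share a basic helix-loop-helix leucine zipper and bind E-box DNA as pairs. Its 10 genes, MYC, MYCN, MYCL, MAX, MXD1, MXI1, MXD3, MXD4, MNT and MGA, were taken by symbol from 2 deposited lists of ZBTB16 CUT&Tag peaks, out of 16491 protein-coding pig genes with a symbol. All 10 were in the gene table. Between them they held 11 of the 10273 peaks of replicate 1 and 12 of the 7301 peaks of replicate 2. A gene with no row had no peak assigned to it.

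ZBTB16 (PLZF) is a zinc finger repressor that helps to maintain spermatogonial stem cells, and CUT&Tag uses an antibody to direct a transposase to the DNA that a protein occupies. The data were 1 group of 2 libraries, replicate 1 and replicate 2, made from wild-type (WT) pig testis cells that the labels call immature spermatogonia, with 100000 cells in each and no treatment named. The sources used here do not give the age of the animals or whether the libraries came from separate animals or cultures. A peak list holds no expression values, so the purity of the cells could not be checked against marker genes. Neither an IgG library nor RNA-seq after knockdown was analysed here, so no value below separates ZBTB16 from unspecific signal or says whether a gene's expression responds to ZBTB16.

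MYC, MYCN and MYCL drive growth and proliferation, and each needs MAX as its partner to bind DNA. MXD1, MXI1, MXD3, MXD4, MNT and MGA compete for the same partner. The MXD proteins, MXI1 and MNT recruit the SIN3 co-repressor, while MGA is the scaffold of a variant Polycomb complex that silences germline and meiotic genes. The balance between the MYC side and the MXD side is known to shift as cells leave the cycle and differentiate.

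In these cells the common partner MAX, all 6 genes of the competing side and MYC itself had a promoter peak in both libraries. MYCL had one in replicate 2 only, and MYCN had no assigned peak at all. The count was therefore 8 of 10 genes with a promoter peak in both libraries, where 20.8% of all coding genes had one. In single libraries it was 8 of 10 genes in replicate 1, against 32.8% of coding genes, and 9 of 10 in replicate 2, against 24.9%. With peaks of any class counted, 8 of 10 genes had one in both libraries, against 28.2% of coding genes, and 9 of 10 in at least 1 library, against 50.7%. Among peaks at or above the median fold of their own list, the count was 4 of 10 (MXD1, MXD3, MXD4 and MGA), against 11.6%. The promoter class of the authors' annotation holds peaks up to 3 kb upstream of the transcription start site (TSS). The genes were chosen with earlier results of these data known, so no test of this count is given.

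Fold enrichment is the authors' value of a peak relative to background within the same library. The number of fragments at the summit was recovered from the deposited fold and p-value, and its exact 95% Poisson interval covers counting error only. Percentiles give the place of a peak, by fold, among the 6251 promoter peaks of replicate 1 or the 4673 of replicate 2. The median promoter peak had a fold of 5.33 from 19 fragments in replicate 1 and of 5.25 from 16 fragments in replicate 2. The network's promoter peaks ran from 4.16-fold to 9.98-fold in replicate 1 and from 4.16-fold to 8.32-fold in replicate 2. They thus lay on both sides of those medians. The network's own median fold was 4.89 over 8 peaks in replicate 1, below that of all promoter peaks. In replicate 2 it was 5.67 over 9 peaks, above that of all promoter peaks.

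**Figure D1:**
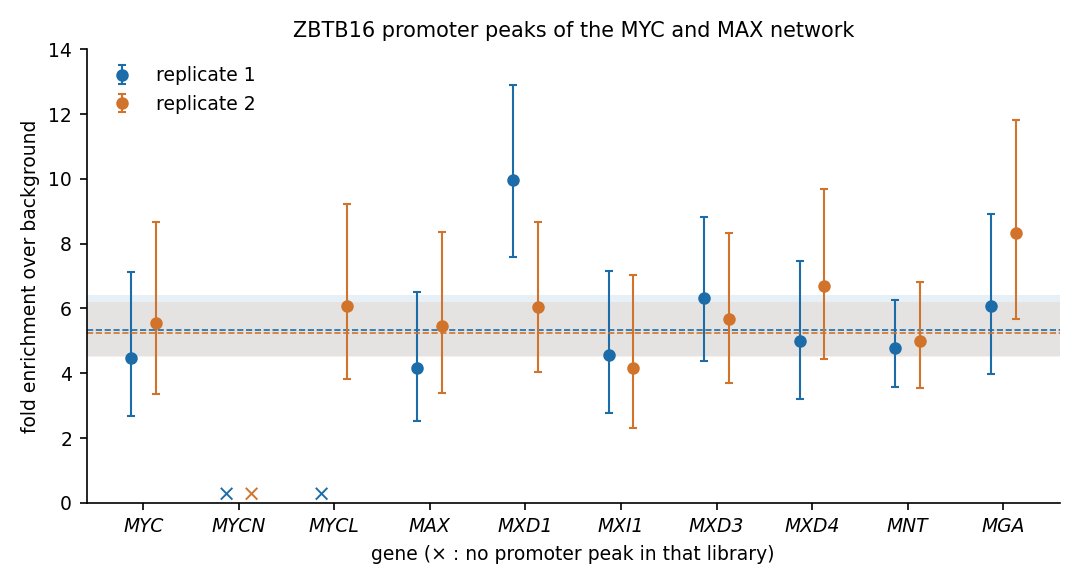
Fold enrichment (vertical axis, linear) of the promoter peak of each network gene in replicate 1 (blue) and replicate 2 (orange). Bars are exact 95% Poisson intervals of the summit fragments with the background held fixed, dashed lines and shaded bands are the median and the middle 2 quartiles of all promoter peaks, and a cross marks no promoter peak. MXD1 in replicate 1 at 9.98 and MGA in replicate 2 at 8.32 are the highest points, MYCN has none and MYCL has 1.

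MYC, the founding member of the family, had 1 peak in each library, across its TSS on chromosome 4 (12459932 to 12460466 in replicate 1, Sscrofa11.1). Its fold was 4.48 in replicate 1, from 16 fragments (9.15 to 26.0), and 5.54 in replicate 2, from 17 fragments (9.90 to 27.2). The intervals overlapped widely. The peak stood at the 23.8th percentile of promoter peaks in replicate 1 and at the 59.0th in replicate 2. It was thus below the median promoter peak in replicate 1 and above it in replicate 2. Its summit lay 118 bp downstream of the TSS in replicate 1 and 30 bp downstream in replicate 2. The coding genes nearest to MYC in both percentiles, of 3438 with a promoter peak in both libraries, were SPATA2L, KIAA0391 and CSNK1G1, at 1.26, 1.97 and 2.49 percentile points. That likeness rests on 2 libraries and on height alone.

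MYCL, a MYC paralogue, had a promoter peak in replicate 2 only, 42 bp upstream of its TSS on chromosome 6 (95702669 to 95703141). The fold was 6.08, from 20 fragments (12.2 to 30.9), which put it at the 72.7th percentile of replicate 2, above MYC in the same library. In replicate 1 the nearest peak lay 96.0 kb from the gene. Of the 939 promoter peaks of replicate 2 with 18 to 22 summit fragments, 97.0% overlapped a replicate 1 peak, so MYCL was among the 28 that did not. The lowest summit that made a peak anywhere in replicate 1 held 7 fragments. The number needed depends on the background at a site and is not known for MYCL in replicate 1. The reason for the missing peak was not tested.

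MYCN, the paralogue best known from embryonic and neural progenitors, had no assigned peak. The nearest peak was 169 kb away from the gene (chromosome 3, 121543201 to 121549678) in replicate 1 and 333 kb away in replicate 2. No peak of another gene lay within 100 kb in either list. Absence from the lists says that no peak passed the caller at this depth.

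MAX, the common partner of the network, had a promoter peak on chromosome 7 in both libraries. The peak spanned 89167518 to 89168672 in replicate 1 and 89168080 to 89168700 in replicate 2. Its fold was 4.16 in replicate 1, from 17 fragments (9.90 to 27.2), and 5.45 in replicate 2, from 19 fragments (11.4 to 29.7). In replicate 1 it ranked at the 14.9th percentile, the lowest of the network in that library, and it ranked at the 56.0th in replicate 2. The replicate 1 peak was also broad, at 1155 bp, at the 97.7th percentile of width among promoter peaks of that library. The summits lay 310 bp apart, against a median gap of 92 bp over 3945 overlapping pairs of promoter peaks. From the outermost MAX start in the gene table the summit lay 208 bp inside the gene in replicate 1 and 102 bp upstream in replicate 2. The authors' annotation named a different transcript start of MAX in each library.

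MXD1, the founding MYC antagonist, which rises as many cell types stop dividing, had the strongest promoter peak of the network in replicate 1. On chromosome 3 (72544973 to 72545889) it reached 9.98-fold in replicate 1, from 56 fragments (42.3 to 72.7), at the 98.9th percentile. In replicate 2 it reached 6.03-fold, from 27 fragments (17.8 to 39.3), at the 71.7th percentile. The intervals of the fragments did not overlap, before any allowance for depth, while those of the fold did. The deposited summits fell on the same base in both libraries, 234 bp upstream of the TSS, although the peak spanned 917 bp in replicate 1 and 412 bp in replicate 2.

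Among the other MYC antagonists, MXD3, which is expressed during S phase in proliferating cells, had a peak of much the same extent in both libraries. The peak on chromosome 2 (80636801 to 80637517) had a fold of 6.31 in replicate 1, from 32 fragments (21.9 to 45.2), and of 5.67 in replicate 2, from 24 fragments (15.4 to 35.7). The summits lay 20 bp apart, 120 and 100 bp downstream of the assigned start.

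MXD4, another MAX partner that represses transcription, had a peak of 5.003-fold in replicate 1, from 22 fragments (13.8 to 33.3), and of 6.68-fold in replicate 2, from 26 fragments (17.0 to 38.1). The site was on chromosome 8 (1216818 to 1217461 in replicate 1), with summits 113 and 284 bp upstream of the TSS. It was the higher of the pair in replicate 2, at the 83.5th percentile against the 40.4th, with overlapping intervals.

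MXI1, known for its alternative first exons, had the lowest promoter peak of the network in replicate 2. The peak on chromosome 14 (120660748 to 120661145 in replicate 1) had a fold of 4.57 in replicate 1, from 17 fragments (9.90 to 27.2), and of 4.16 in replicate 2, from 12 fragments (6.20 to 21.0). Its summit lay 56 bp downstream of the assigned start in replicate 1 and 32 bp upstream in replicate 2. That start is an internal one, 17.2 kb downstream of the outermost MXI1 start in the gene table. No peak lay within 1 kb of that outermost start in either library. Of all peaks within 3 kb of the starts assigned to the network's genes, 0 were credited to another gene.

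**Figure D2:**
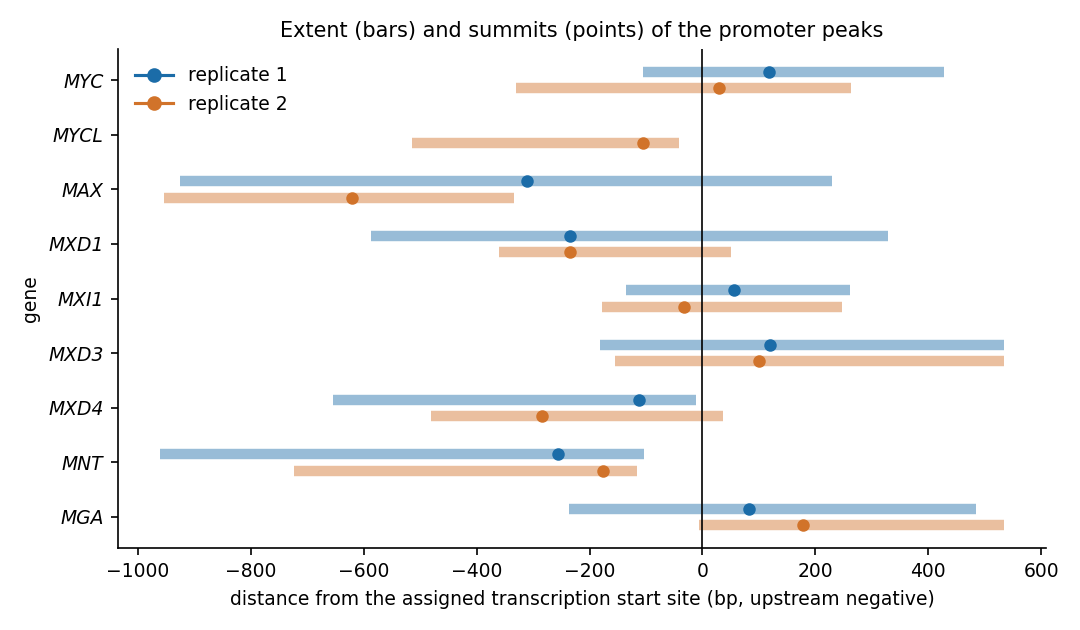
Extent (bars) and summit (points) of each promoter peak along the distance from the TSS assigned in replicate 1 (bp, upstream negative; for MYCL, replicate 2), with replicate 1 in blue and replicate 2 in orange. The 17 summits lie between 620 bp upstream and 178 bp downstream, those of MXD1 coincide, and those of MAX are 310 bp apart.

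MNT, a broadly expressed MAX partner that holds MYC in check, was the only gene of the 10 with 3 peaks in each library. Its promoter peak on chromosome 12 (48486841 to 48487697) had a fold of 4.78 in replicate 1, from 50 fragments (37.1 to 65.9), and of 4.99 in replicate 2, from 37 fragments (26.1 to 51.0). A second peak lay in intron 1 of 5, with its nearest edge 1107 bp downstream of the TSS (48484677 to 48485630), at 4.09-fold and 4.14-fold. The strongest peak was in intron 4 of 5 (48477810 to 48478764). It had a fold of 7.94 in replicate 1, from 61 fragments (46.7 to 78.4), and of 7.41 in replicate 2, from 43 fragments (31.1 to 57.9). Its summits, 8588 and 8590 bp downstream of the TSS, were 2 bp apart.

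The intron 4 peak stood at the 98.9th percentile by fold among intronic peaks of replicate 1 and at the 97.6th in replicate 2. Most coding genes with a promoter peak had no other peak. Of those that also had a peak of another class, the strongest was not the promoter peak at 180 of 534 in replicate 1 (33.7%) and at 90 of 242 in replicate 2 (37.2%), as at MNT. All 3 MNT peaks overlapped between the libraries, and 11 of the 4404 coding genes with any overlapping peak assigned to the same gene in both lists had 3 or more (0.250%).

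The height of the MNT promoter peak depended on the measure. By fold it stood at the 33.0th percentile in replicate 1 and the 41.0th in replicate 2. By summit fragments it stood at the 97.6th and the 96.7th. The recovered background moved with this: it was 9.68 fragments in replicate 1 and 6.61 in replicate 2, against medians of 2.67 and 2.18 over all promoter peaks, and ranked at the 99.7th and 99.4th percentiles. Its part in the peaks along MNT was not tested.

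**Figure D3:**
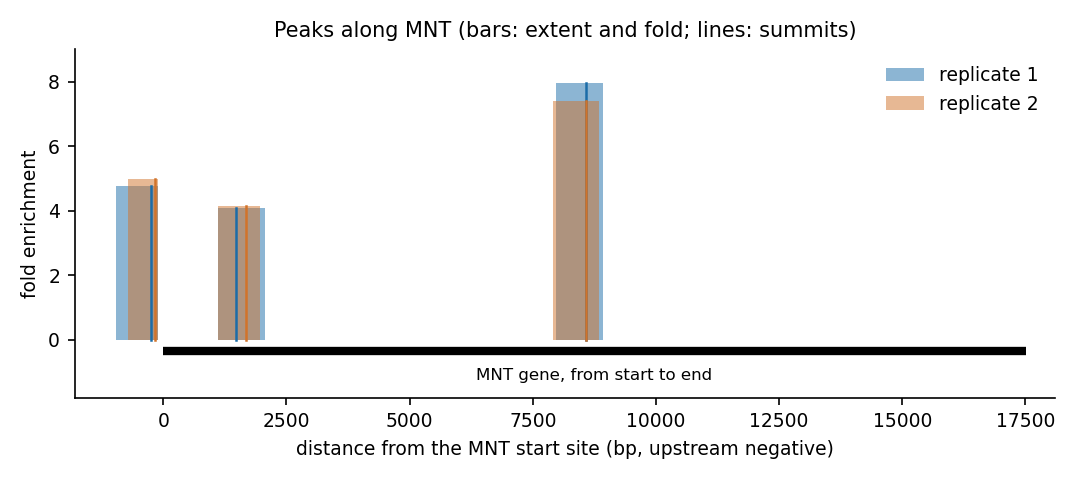
Peaks along MNT by distance from its TSS (bp, upstream negative), with fold enrichment on the vertical axis (linear, bars from 0), replicate 1 in blue and replicate 2 in orange, and vertical lines at the summits. The intron 4 peak, near 8590 bp downstream, reaches 7.94 and 7.41, above the promoter peak at 4.78 and 4.99.

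MGA, which pairs with MAX and carries a T-box as a second DNA-binding domain, had the strongest promoter peak of the network in replicate 2. The peak on chromosome 1 (129696949 to 129697671 in replicate 1) had a fold of 6.08 in replicate 1, from 24 fragments (15.4 to 35.7), and of 8.32 in replicate 2, from 29 fragments (19.4 to 41.6). It stood at the 68.3rd percentile in replicate 1 and at the 96.3rd in replicate 2, with overlapping intervals. A further peak assigned to MGA was intergenic, 65.0 kb upstream of its TSS (129762474 to 129763172 in replicate 1). It had a fold of 4.996 from 16 fragments in replicate 1 and of 4.55 from 11 fragments in replicate 2, with an overlap of 694 bp. Among distal intergenic peaks it stood at the 68.6th and the 52.5th percentile. The assignment to MGA is by nearness and shows no contact with the gene.

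All 8 pairs of promoter peaks overlapped between the libraries, by 370 bp at MYC to 690 bp at MXD3. In 6 of the 8 pairs the summits were at most 100 bp apart, where 52.7% of all 3945 pairs were. The MXD1 overlap of 412 bp covered 44.9% of the wider peak, the lowest share of the 8. The fold was higher in replicate 1 at MXD1, MXI1 and MXD3 and higher in replicate 2 at MYC, MAX, MXD4, MNT and MGA.

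To set these differences against depth, the summit fragments of each pair were split between the libraries. The median pair of all overlapping promoter peaks had 56.7% of its fragments in replicate 1. The background floor, a stand-in for depth, was 1.23 times higher in replicate 1 than in replicate 2, which gives a split of 55.2%. MXD1 had 67.5% in replicate 1 (exact binomial 95% interval 56.3 to 77.4), MXD4 had 45.8% (31.4 to 60.8) and MGA had 45.3% (31.6 to 59.6). These 3 lay outside the 5th to 95th percentile of all pairs, 46.2% to 65.9%. Of the 8 network pairs, 0 had an interval that left out the median split, and 1, MXD1, had an interval that left out the split by background floor. For the other 7 no difference in height between the libraries was detectable at this depth by either reference, and for MXD1 it depended on the reference. A pair enters only when both lists hold the peak, which narrows the spread over all pairs.

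**Figure D4:**
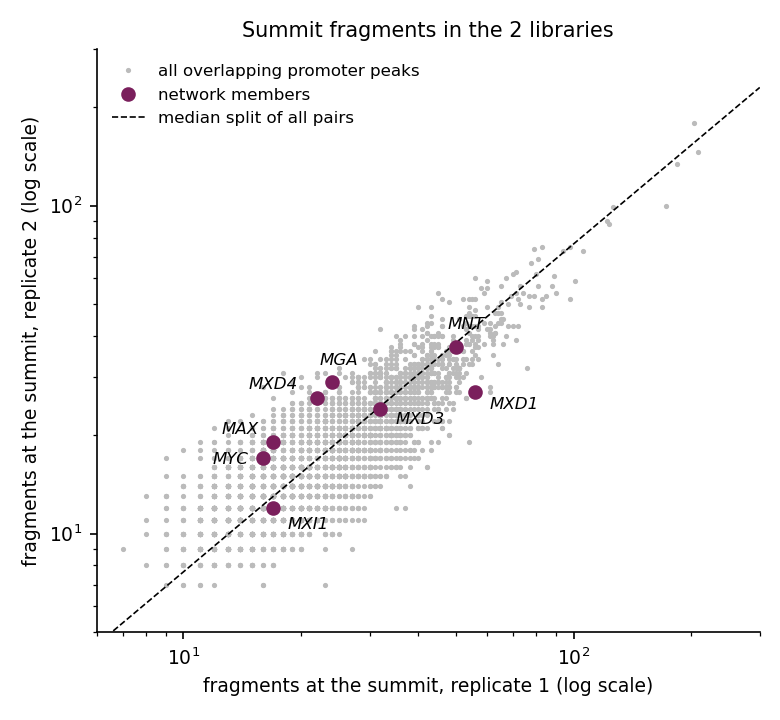
Fragments at the summit in replicate 1 (horizontal) and replicate 2 (vertical), both on log scales, for all 3945 overlapping pairs of promoter peaks (grey) and the 8 network genes (purple), with the median split as a dashed line. MNT (50 and 37 fragments) and MXD3 (32 and 24) lie close to the line, MXD1 (56 and 27) below it and MGA (24 and 29) above it.

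The genes that work with the network were followed in 6 lists written from general knowledge, with 130 genes matched. In each list the share with a promoter peak in both libraries was above the 20.8% of all coding genes, from 30.0% to 47.1%, and below the 8 of 10 of the network itself. This did not hold for peaks at or above the median fold of each library's peak list. There the related E-box factors (1 of 10) and the coactivators (2 of 20) each had 10.0%, below the 11.6% of all coding genes. With equal list lengths the coactivators had 4 of 20, close to the 19.2% of all coding genes. No test of these shares was made, since the lists were written with earlier results known. Over all 3438 coding genes with a promoter peak in both libraries the median fold was 5.85 in replicate 1 and 5.45 in replicate 2.

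The SIN3 co-repressor, which carries out repression by the MXD proteins, MXI1 and MNT, had 8 of 17 genes with such a peak in each library (47.1%). Their median fold was 6.21 in replicate 1 and 6.07 in replicate 2. The strongest were ARID4A, a SIN3-associated chromatin reader (7.29-fold and 7.13-fold), and RBBP4, a histone chaperone (7.05-fold and 6.61-fold). SAP130 and BRMS1L, subunits of the same complex, had 6.12-fold and 5.96-fold, and 6.72-fold and 6.19-fold. SIN3A itself was among the 8, but its fold was below their median in both libraries. It had 4.16-fold from 61 fragments in replicate 1 and 2.73-fold from 27 fragments in replicate 2. By fold the replicate 2 peak stood at the 0.0856th percentile of promoter peaks. No peak lay within 1 kb of an end of SIN3A in either library. SIN3B and RBBP7 had no assigned peak, and neither did ARID4B, although a peak assigned to its neighbour GGPS1 lay within 1 kb of an end of ARID4B in both libraries.

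The MGA complex, PRC1.6, had 5 of 16 genes with a promoter peak in both libraries (31.2%), with median folds of 6.27 and 6.39. The count was also 5 of 16 with any assigned peak, where 28.2% of all coding genes had one. By any peak within 1 kb of either gene end it was again 5 of 16, against 29.0%, so the share was then close to that of all coding genes. CBX1 and CBX3, heterochromatin proteins that read methylated histone H3, had 7.02-fold and 6.39-fold, and 5.81-fold and 4.88-fold. The deacetylases HDAC1 (6.27-fold and 6.63-fold) and HDAC2 (6.49-fold and 6.72-fold), which also serve SIN3, completed the named genes. E2F6, a DNA-binding subunit that pairs with a DP protein, had no assigned peak, nor had the methyltransferases EHMT1 and EHMT2.

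Of the factors that control MYC turnover and phosphorylation, 9 of 23 had a promoter peak in each library (39.1%), with median folds of 7.50 and 7.07. PPP2R5A, a regulatory subunit of the phosphatase PP2A, had 10.8-fold and 8.80-fold, at the 99.6th and 97.9th percentiles. GSK3B, the kinase that marks MYC for degradation, had 10.2-fold and 8.56-fold. USP36, a nucleolar deubiquitinase, had 7.50-fold and 7.58-fold. AURKB, PLK1 and SENP1 had no assigned peak. However, peaks assigned to neighbouring tRNA genes lay within 1 kb of an end of AURKB in both libraries. A peak assigned to a neighbouring gene lay as near to SENP1 in replicate 1. PPP2R5A, GSK3B and USP36 all stood above MYC itself in both libraries, but they were named because they were among the strongest of the list.

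The coactivators and cofactors of MYC had 6 of 20 genes with a promoter peak in both libraries (30.0%), with median folds of 5.47 and 5.67. They included the acetyltransferase KAT5 (6.35-fold and 6.58-fold), the reader protein YEATS2 (5.72-fold and 6.02-fold), the actin-related ACTL6A (5.63-fold and 4.60-fold) and ZBTB17. ZBTB17 is MIZ1, a zinc finger protein through which MYC represses genes, and had 5.31-fold and 4.39-fold. CDK9 and KAT2A had no assigned peak, although a peak assigned to a neighbour lay within 1 kb of an end of KAT2A in replicate 2. The related E-box factors had 3 of 10 (30.0%), namely TFE3 (5.84-fold and 6.05-fold), MLXIP (4.23-fold and 5.44-fold) and USF3 (4.76-fold and 3.83-fold), with median folds of 4.76 and 5.44. MLXIPL, the glucose-responsive partner of MLX, had none.

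Downstream of the network, 15 of 44 known MYC target genes of the nucleolus, growth and metabolism had a promoter peak in each library (34.1%), with median folds of 6.31 and 5.43. EIF5A, a translation factor, had 8.56-fold and 8.33-fold. The cell cycle phosphatase CDC25A had 8.03-fold and 6.79-fold, the mitochondrial chaperone HSPD1 had 7.93-fold and 7.58-fold, and nucleolin, NCL, had 6.58-fold and 6.73-fold. BOP1, CAD and CCND2 had no assigned peak. When any peak within 1 kb of either gene end counted, whichever gene it was assigned to, 26 of the 44 had one in both libraries, against 29% of all coding genes.

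**Figure D5:**
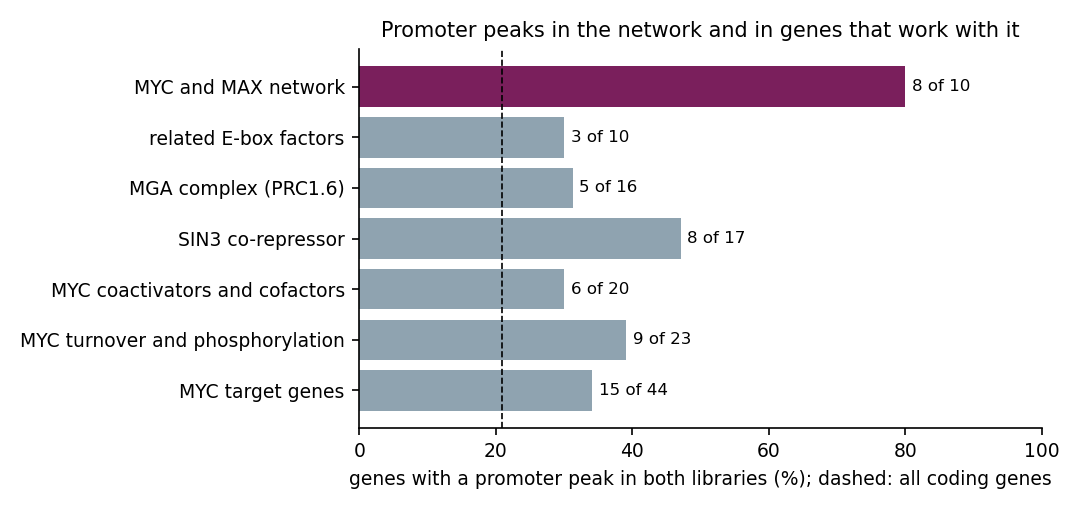
Share of genes with a promoter peak in both libraries (horizontal axis, percent, bars from 0) for the network and 6 lists of genes that work with it, with the counts beside the bars and a dashed line at the share of all coding genes. The network stands at 8 of 10, the lists between 30.0% and 47.1%, and the line at 20.8%.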

How the data were processed

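Per the submitters' processing notes, the deposited ZBTB16 CUT&Tag peaks, listed per library, are on build Sscrofa11.1. The sources used here do not give the aligner, peak caller, its control, annotation tool or sequencing depth. Per the file headers, the authors gave each peak a fold enrichment (a linear ratio), a −log10 p-value, a −log10 q-value, a score (not used), a summit, and 1 gene with a class and a distance to its TSS. Distances and summit positions are in bp in the deposited files. The authors' lowest −log10 q-value was 1.31 in both lists.

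Genes came from the RefSeq table for Sscrofa11.1, which gives no strand. Of 134 list genes, 130 matched a unique symbol or synonym. A count of whole summit fragments n and a background b were recovered from the deposited values as the whole number for which fold = (n + 1)/(b + 1) and the upper Poisson tail gave the deposited p-value. The match held to a relative error of 1e-05 for 100% of peaks in both lists. In a simulation 100% of 960 peaks were recovered, and 0% of 953 peaks made from fractional counts passed. Peaks overlapped when they shared at least 1 bp. No p-value was computed. The members and lists were chosen with earlier results of these data known. Named are all members, up to 4 list genes with a promoter peak in both libraries (highest by the lower percentile), up to 3 without any assigned peak (in alphabetical order) and the 3 genes nearest MYC in rank. A few list genes that fall under the rule are not reported here. GGPS1, SIN3A and the neighbouring genes of the closing section were chosen for naming after seeing their values. A planned motif search was not run, as no promoter sequence was used here. Alternatives were single libraries, stricter fold or q, equal list lengths, a narrower promoter, any assigned peak, stricter overlap and other ranks. The tools were scipy 1.17.1, pandas 2.3.3 and numpy 2.4.6 under Python 3.11.15, with figures by matplotlib 3.10.9.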

Additional observations from a re-analysis of the deposited data

How the results depend on the processing

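The 8 genes with a promoter peak in both libraries were the same genes at a −log10 q-value of at least 3, with equal list lengths, within 1000 bp upstream and with any assigned peak. With a single library the count was 8 to 9. With only peaks at or above the median fold of their own list, 4 of 10 genes were left (MGA, MXD1, MXD3 and MXD4), both by gene and by overlap, while the share of all coding genes was 11.6%. That share was 24.9% to 32.8% with a single library. An alternative added after the data were seen, any peak within 1000 bp of either gene end, gave 7 of 10, without MXI1, whose peak lies at an internal start. The planned version of it, at gene starts only, was not run because the gene table gives no strand.

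At the median fold, related E-box factors had 1 of 10, the MGA complex 3 of 16, coactivators 2 of 20 and target genes 7 of 44, so that E-box factors and coactivators (10.0% each) lay below the 11.6% of all coding genes. With a single library, the E-box factors had 3 to 6 of 10. Target genes had 26 of 44 by either gene end. Reciprocal overlap of 50% left out MXD1 only. Of 34 percentiles taken by fragments or p-value, 4 left the interval of the fold, all at MNT. No paired analysis was possible because both libraries belong to 1 group. With 11 to 61 fragments per summit, counting error is wide.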

Other observations

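Peaks of other genes near the network were counted without a share over all coding genes to set beside them. Within 100 kb of a network gene they numbered 0 to 3 in replicate 1 and 0 to 2 in replicate 2. Within 100 kb of MYC there was 1 in each library, in an intron of the long noncoding RNA LOC106509952, 88.1 kb beyond the 3′ end of MYC in replicate 1 and 88.4 kb in replicate 2. It had 4.35-fold and 4.45-fold, each from 12 fragments (6.20 to 21.0), close to the fold of MYC itself in replicate 1, and the 2 peaks overlapped by 156 bp. Near MAX, the promoter of FNTB, the beta subunit of farnesyltransferase, 89.8 kb away, had 10.8-fold and 8.67-fold, above MAX in both libraries.

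MXD4 and MXD3 had the closest shared neighbours. A peak 4.17 kb from the end of MXD4 was assigned to HAUS3, a mitotic spindle gene, in replicate 1 (6.97-fold) and to the overlapping DNA polymerase gene POLN in replicate 2 (6.13-fold), and the 2 overlapped by 383 bp. Likewise a peak near MXD3 was credited to RAB24 in replicate 1 (4.18-fold) and to PRELID1 in replicate 2 (5.11-fold), with an overlap of 207 bp. Such sites are missed when genes are counted by a promoter peak of the same gene in both lists. In replicate 1 only, a 5′ UTR peak of MAPKBP1 (5.63-fold, 22 fragments) lay 2.04 kb from the 3′ end of MGA.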
